A study of Mus musculus with 7 samples.

Results

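The MHC class I presentation genes described here are B2m, H2-K1, H2-D1, H2-T22, H2-T23, Tap1, Tap2, Tapbp, Nlrc5 and Erap1. They were taken by gene symbol from a table of 56422 symbols, all 10 were present, and all 10 were among the 14967 symbols with enough expression to be tested. The samples, labelled as CD8+ T cells, had been isolated from ascites, the fluid of the abdominal cavity, in mice modelling peritoneal metastasis, in a series whose title concerns mannose, PD-1 blockade and ovarian cancer. There were 7 libraries, 3 from mice co-treated with propionate and butyrate, the short-chain fatty acids that microbes of the gut release, and 4 from controls that received no treatment. The mouse strain, age, tumour line, doses and the way the cells were isolated are not given in the sources used here, nor is it said whether each library came from a separate animal. The p-values below therefore measure the spread between these libraries, which may be technical.

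MHC class I molecules display peptides from inside the cell to CD8+ T cells. A heavy chain, encoded by H2-K1, H2-D1 or a related gene, pairs with beta-2-microglobulin, and peptides made by the proteasome are carried into the endoplasmic reticulum by the Tap1-Tap2 transporter, trimmed by Erap1 and loaded with the help of tapasin, the product of Tapbp. Nlrc5 is a transactivator that works at class I promoters together with RFX, CREB/ATF and NF-Y proteins, and lymphocytes express it at high levels.

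Expression was given as TPM, which corrects for transcript length and scales every library to the same total, so levels of different genes can be set side by side but the sequencing depth is unknown. Between 13914 and 14949 symbols reached 1 TPM per library. The libraries held RNA of several cell types. T cell identity genes, led by Trbc2, Trac and Cd3g, were all detected and all 14 of 14 were called higher in treated libraries, with sums of 676 to 2851 TPM in treated and 138 to 242 TPM in control libraries. Macrophage and monocyte markers, led by Apoe, Lyz2 and C1qb, summed to 3769 to 4270 TPM in treated and 6207 to 14980 TPM in control libraries, a sum carried mostly by Apoe and Lyz2. Of these 12 markers 1 was called lower, Apoe, 1 was called higher, Ly6c2 (a gene named after its values were seen), and 10 were not called. Tumour epithelium and mesothelium markers, led by Krt19, Wt1 and Krt18, summed to 844 to 1590 TPM in treated and 2234 to 2755 TPM in control libraries, and 8 of 10 tested were called lower. Dendritic cell and MHC class II markers, led by Cd74, summed to 4855 to 6572 TPM in treated and 6208 to 8542 TPM in control libraries. These ranges overlapped, 0 of 8 tested were called lower and 1 was called higher (Siglech, named after its values were seen), and the median difference was -0.31. Of all tested symbols, 4.30% were called higher and 7.59% lower. The third treated library stood apart with 32.9% of TPM from mitochondrially encoded genes, against 13.6% to 18.2% in the other 6 libraries. In such mixed samples, fewer cells of a type and less RNA per cell cannot be told apart.

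Of the 10 class I presentation genes, 1 was called higher in treated libraries and 0 were called lower. The gene called was Nlrc5. The test was limma on log2(TPM + 1) with Benjamini-Hochberg adjustment over all symbols, called at an adjusted p under 0.05, and it called 4.30% of all tested symbols higher and 7.59% lower. At an unadjusted p under 0.05 the same 1 member was higher and 0 were lower, beside 6.87% and 23.6% of all tested symbols. The median difference of the 10 members was 0.19 on the log2 scale, beside a median of -0.24 over all tested symbols. When libraries were scaled by median of ratios, the median over all symbols moved to -0.02 and that of the members to 0.44. After mitochondrial genes and their nuclear copies were taken out, these were -0.05 and 0.40. Under these scalings the 1 member called higher was again Nlrc5, beside 8.63% and 8.09% of all symbols called higher, and 0 members were called lower, beside 6.74% and 7.98%. When each library was weighted by its fit to the others (array weights), 7 members were called higher and Tapbp lower, beside 15.0% and 28.2% of all symbols.

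**Figure D1:**
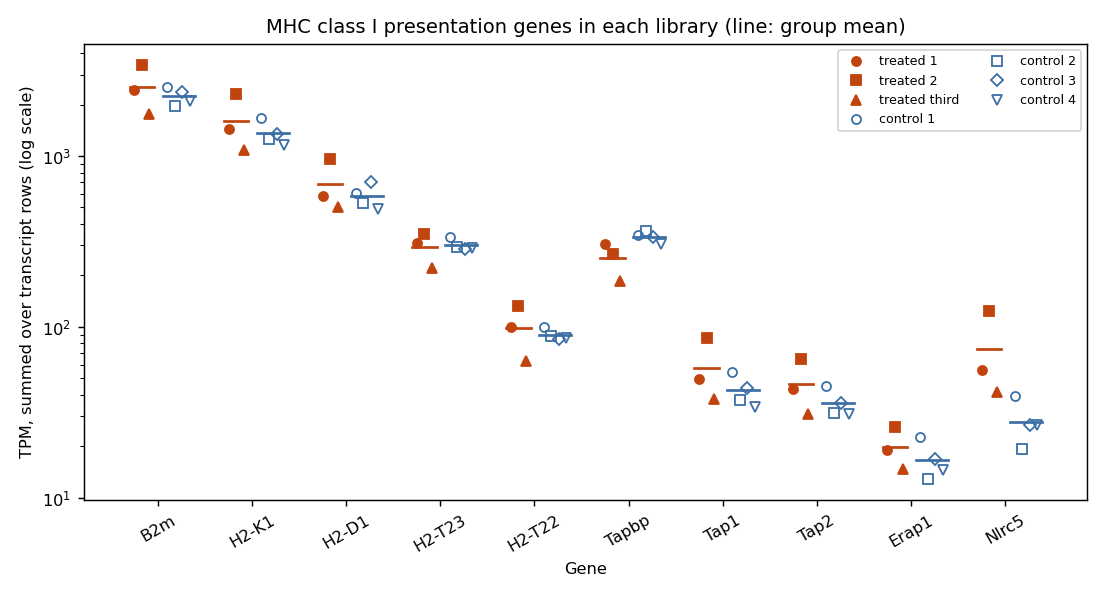
TPM of each class I presentation gene (log scale) in the 3 treated libraries (filled orange) and the 4 control libraries (open blue), with a line at each group mean. Treated replicate 2 is the highest library for 9 of the 10 genes, and the groups separate for Nlrc5 and Tapbp.

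The light chain and the classical heavy chains were the most abundant members and did not pass the test. B2m, the light chain of every class I molecule, had 2421.7, 3426.0 and 1771.1 TPM in treated libraries 1, 2 and the third, against 2540.2, 1974.0, 2382.5 and 2087.5 TPM in control libraries 1 to 4. The treated libraries held both the highest and the lowest value, so the groups overlapped. The difference was 0.13 on the log2 scale (SE 0.27, 95% interval -0.44 to 0.70, limma with Benjamini-Hochberg adjusted p = 0.759).

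H2-K1, the classical heavy chain of the K locus, had 1447, 2309 and 1083 TPM in treated libraries, against 1666, 1257, 1342 and 1165 TPM in control libraries. H2-D1, the heavy chain of the D locus, had 579.8, 965.1 and 502.3 TPM in treated libraries, against 607.3, 532.5, 700.6 and 487.8 TPM in control libraries. In both genes treated replicate 2 was the highest library of all 7 and the other treated libraries lay within or near the control range. The differences were 0.19 (SE 0.27) and 0.18 (SE 0.25) on the log2 scale, with adjusted p = 0.654 and 0.636 by limma with Benjamini-Hochberg adjustment.

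The non-classical heavy chains did not pass the test either. H2-T22, whose product is a ligand of gamma-delta T cell receptors, had 99.8, 132.6 and 63.5 TPM in treated libraries, against 99.2, 88.6, 84.5 and 85.8 TPM in control libraries. H2-T23 encodes Qa-1, which presents leader peptides of other class I chains to CD94-NKG2 receptors. It had 311.0, 351.0 and 222.3 TPM in treated libraries, against 335.9, 292.2, 285.6 and 289.7 TPM in control libraries. The third treated library was the lowest of the 7 for both genes and treated replicate 2 the highest, so the groups overlapped. The differences were 0.08 (SE 0.23) and -0.05 (SE 0.21) on the log2 scale, and the limma Benjamini-Hochberg adjusted p was 0.840 and 0.885. The 95% interval of H2-T23, -0.49 to 0.39, lay on both sides of 0. Its sign was positive under both other scalings, at 0.17 without mitochondrial genes and their copies and 0.20 with median-of-ratios scaling.

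The promoters of these genes are shown because the light chain and the heavy chains share motifs upstream of their starts. The sequences are the 200 bases before the transcription start in RefSeq, build GRCm38.p6, written 5′ to 3′ on the strand of the gene, and are from a build other than that of the expression table. Capitals mark matches on either strand to the core of the interferon-stimulated response element (GAAA, any 2 bases, GAAA), TGACG (the core of the X2 box), CCAAT (the core of the Y box) and TTTCACTT, a stretch chosen after the sequences were seen.
B2m, chr2:122147487-122147686, plus strand: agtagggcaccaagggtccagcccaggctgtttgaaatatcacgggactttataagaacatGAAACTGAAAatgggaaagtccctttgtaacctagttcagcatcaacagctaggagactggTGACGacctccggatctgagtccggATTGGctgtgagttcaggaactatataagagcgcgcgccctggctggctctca
H2-K1, chr17:34000334-34000533, minus strand: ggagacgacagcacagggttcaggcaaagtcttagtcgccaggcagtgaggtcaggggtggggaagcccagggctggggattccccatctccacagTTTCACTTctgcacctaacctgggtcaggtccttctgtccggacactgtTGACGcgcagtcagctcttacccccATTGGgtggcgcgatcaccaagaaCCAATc
H2-D1, chr17:35262894-35263093, plus strand: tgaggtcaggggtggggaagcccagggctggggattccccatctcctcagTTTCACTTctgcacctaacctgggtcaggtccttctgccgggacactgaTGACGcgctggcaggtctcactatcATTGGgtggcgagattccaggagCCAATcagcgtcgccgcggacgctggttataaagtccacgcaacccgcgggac
H2-T22, chr17:36042743-36042942, minus strand: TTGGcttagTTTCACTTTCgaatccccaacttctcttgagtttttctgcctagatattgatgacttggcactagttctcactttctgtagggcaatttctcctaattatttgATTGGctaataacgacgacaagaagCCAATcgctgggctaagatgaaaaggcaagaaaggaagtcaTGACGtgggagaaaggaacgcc
The TTGG that opens the H2-T22 sequence belongs to a CCAAT match that begins just outside the printed stretch. Of the 10 members 8 had a window in the RefSeq table, and Tap2 and Nlrc5 had none. Over the 250 bases before the start, CCAAT was found in 7 of the 8, beside 33.8% of all 32851 windows, and TGACG in 5, beside 17.8%. The response element core was found in B2m, H2-T22 and H2-T23, beside 2.98% of all windows. Only exact matches were marked, so a window without a match may still hold a variant of the element. TTTCACTT itself reads AAGTGAAA on the other strand and so holds GAAA once. TTTCACTT was found in H2-K1, H2-D1 and H2-T22, beside 1.36% of all windows, and in H2-T22 it overlaps the response element core. TGACG lay 78 bases before the start in B2m, 55 in H2-K1, 101 in H2-D1 and 22 in H2-T22 (counted to the first base of the match). In B2m, H2-K1 and H2-D1 a CCAAT match lay between it and the start, and in H2-T22 none did. For H2-K1, which has several annotated starts, the one farthest downstream was taken. Erap1 held 0 of the 4 motifs in its window.

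The peptide supply genes were less abundant and showed small differences. Tap1 and Tap2 encode the chains of the peptide transporter. Tap1 had 49.6, 85.8 and 37.8 TPM in treated libraries, against 54.7, 37.4, 43.7 and 33.9 TPM in control libraries. Tap2 had 43.2, 65.0 and 30.9 TPM in treated libraries, against 45.2, 31.2, 35.7 and 30.8 TPM in control libraries. Only treated replicate 2 exceeded every control library in either gene. The differences were 0.38 (SE 0.26) and 0.32 (SE 0.24) on the log2 scale, with limma Benjamini-Hochberg adjusted p = 0.340 and 0.386. With each library left out in turn they ran from 0.05 to 0.63 and from 0.05 to 0.57, lowest without treated replicate 2 and highest without the third treated library. The ratio of Tap1 to Tap2 was 1.15, 1.32 and 1.22 in treated libraries and 1.21, 1.20, 1.22 and 1.1 in control libraries, so both chains kept close to a common ratio in all 7.

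Erap1, the aminopeptidase that trims peptides in the endoplasmic reticulum, was the least abundant member. It had 19.0, 26 and 14.6 TPM in treated libraries, against 22.6, 12.8, 16.7 and 14.6 TPM in control libraries. The ranges overlapped, and the difference was 0.23 on the log2 scale (SE 0.24, limma Benjamini-Hochberg adjusted p = 0.530). It was 0.03 without treated replicate 2 and 0.42 without the third treated library.

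Tapbp, the chaperone that bridges the peptide transporter and empty class I molecules, stood on the other side of 0. It had 304.1, 265.3 and 185.3 TPM in treated libraries, against 343.7, 365.5, 335.2 and 305.4 TPM in control libraries. Every treated library was below every control library, though treated replicate 1 and control replicate 4 differed little. The difference was -0.45 on the log2 scale (SE 0.21, 95% interval -0.90 to 0.00) and missed the threshold (limma Benjamini-Hochberg adjusted p = 0.164). Such a separation downward was found for 25.7% of all tested symbols. The Tapbp difference was -0.20 with median-of-ratios scaling and -0.23 without mitochondrial genes and their copies. It was -0.24 without the third treated library and -0.60 without treated replicate 1.

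Nlrc5, the transactivator, was the member that passed the test. It had 56.2, 123.7 and 41.8 TPM in treated libraries, against 39.3, 19.3, 26.4 and 26.5 TPM in control libraries. Every treated library was above every control library, with the third treated library close to control replicate 1, a separation upward found for 4.82% of all tested symbols. Nlrc5 averaged 73.9 ± 43.7 TPM in treated libraries (SD, n = 3) and 27.9 ± 8.35 TPM in control libraries (SD, n = 4), a 2.40-fold difference on the log2(TPM + 1) scale. The log2 difference was 1.26 (SE 0.32, 95% interval 0.59 to 1.94, limma with Benjamini-Hochberg adjusted p = 0.0200). Without treated replicate 2 it was 0.82, short of the threshold (limma Benjamini-Hochberg adjusted p = 0.0699), and without control replicate 3 and the third treated library, a choice made after the data were seen, it was 1.58 with adjusted p = 0.0623. Without the third treated library alone it was 1.59 (limma Benjamini-Hochberg adjusted p = 0.0367). T cell identity genes were higher in the same treated libraries and were highest in the same replicate, at 2851 TPM summed, and their part in the Nlrc5 difference was not tested.

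**Figure D2:**
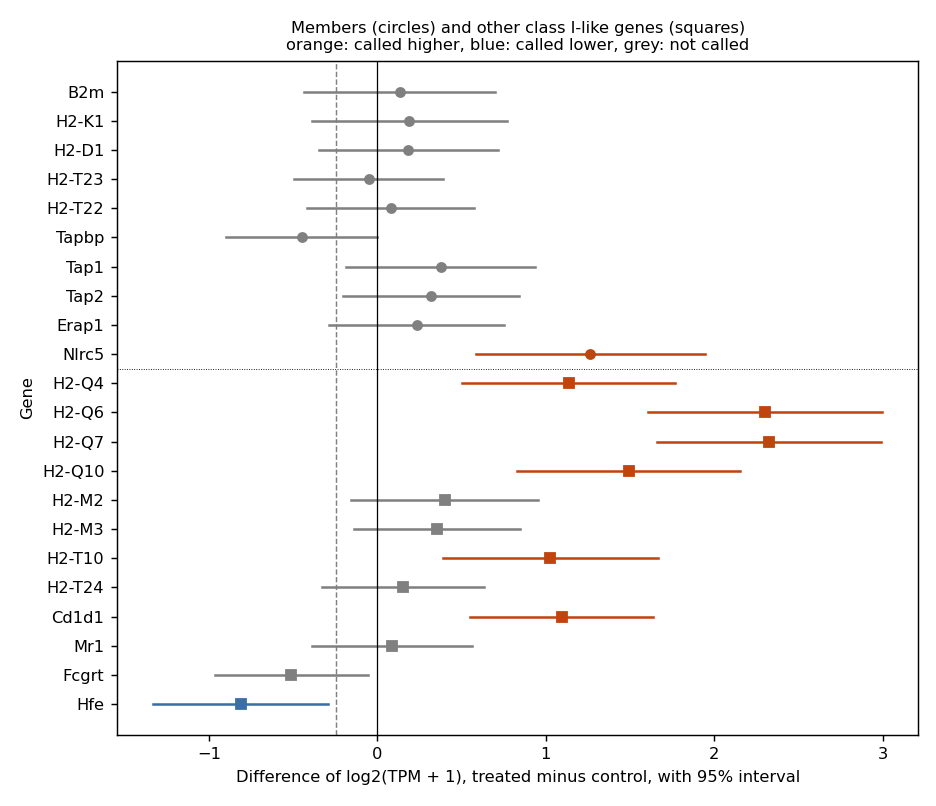
Difference of log2(TPM + 1), treated minus control, with its 95% interval, for the 10 class I presentation genes (circles, above the dotted line) and the 12 tested other class I-like genes (squares). Orange marks genes called higher and blue the gene called lower. The dashed line is the median of all tested symbols, -0.24, and among the 10 members the interval of Nlrc5 alone lies above 0.

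The order of the members by level was the same in both groups apart from Nlrc5 and the neighbours Tapbp and H2-T23. In treated libraries it ran B2m, H2-K1, H2-D1, H2-T23, Tapbp, H2-T22, Nlrc5, Tap1, Tap2 and Erap1, from a mean of 2540 TPM down to 19.9 TPM. In control libraries it ran B2m, H2-K1, H2-D1, Tapbp, H2-T23, H2-T22, Tap1, Tap2, Nlrc5 and Erap1, from 2246 TPM down to 16.7 TPM. Neighbours whose ranges overlapped in treated libraries were B2m and H2-K1, H2-T23 and Tapbp, and the run of H2-T22, Nlrc5, Tap1 and Tap2. In control libraries the ranges of Tapbp and H2-T23 overlapped, as did those along the run of Tap1, Tap2, Nlrc5 and Erap1. The ranges of all other neighbours did not overlap within a group.

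Most members tracked each other from library to library. Their summed TPM was 5331, 7749 and 3953 in treated libraries and 5754, 4610, 5253 and 4527 in control libraries. Treated replicate 2 was the highest library for 9 members, and the third treated library was the lowest for 5. Taking each member as a percentage of the other 9 summed removes this common movement within a library. Nlrc5 then stood at 1.07%, 1.62% and 1.07% in treated libraries, against 0.688%, 0.420%, 0.506% and 0.588% in control libraries. Tapbp stood at 6.05%, 3.55% and 4.92% in treated libraries, against 6.35%, 8.61%, 6.82% and 7.23% in control libraries. These were the 2 members whose ratios did not overlap between the groups, and the ratios of the other 8 did. They are the same 2 that separated by TPM, and the share over all symbols was not computed for such ratios. B2m, for comparison, stood at 79.2% to 83.2% in treated and 74.9% to 85.6% in control libraries.

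**Figure D3:**
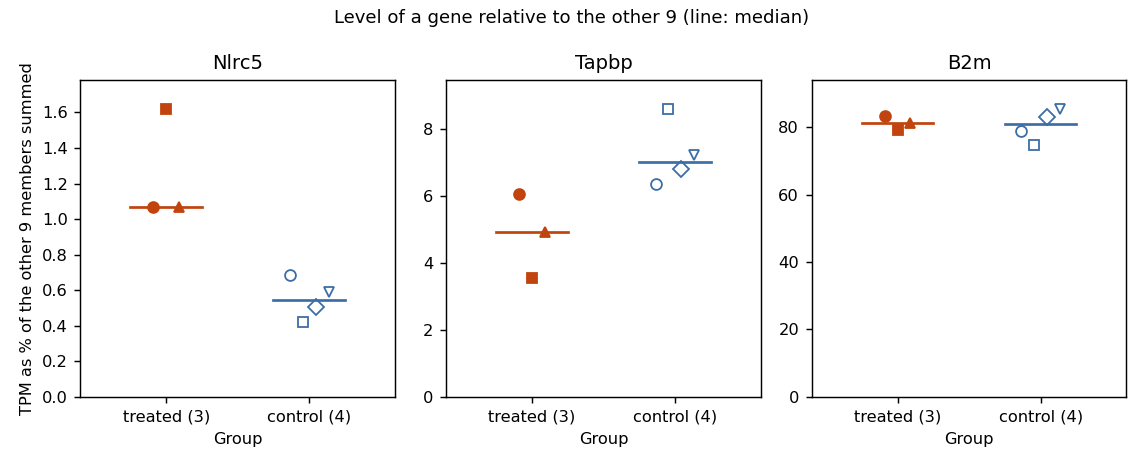
TPM of Nlrc5, Tapbp and B2m as a percentage of the summed TPM of the other 9 members, in 3 treated (orange) and 4 control (blue) libraries, with a line at each group median. The groups separate for Nlrc5 (medians 1.07% and 0.547%) and Tapbp (4.92% and 7.02%) and overlap for B2m. Each panel starts at 0 and has its own scale.

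Against a single partner Nlrc5, which also separated by its TPM alone, did not overlap between the groups either. Nlrc5 over Tap1, one of its known target genes, was 1.13, 1.44 and 1.1 in treated libraries, against 0.718, 0.515, 0.606 and 0.781 in control libraries. The treated ratios were all above 1 and the control ratios all below it.

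Single transcript rows of a gene held differences that its summed value did not show. The table holds 64 transcript rows for the 10 members, of which 50 could be tested, and it gives no transcript identifier, so the rows are ranked here by mean TPM. In a limma fit across 36715 rows, chosen after the data were seen, 5 rows of the members were called higher and 0 lower, beside 1.71% and 1.96% of all rows tested. Rows without overlap between the groups numbered 13 higher and 1 lower, beside 5.32% and 17.0% of all rows. At an unadjusted p under 0.05, 16 were higher and 1 was lower, and 7 of the higher rows were of H2-K1. The share over all rows was not computed at that threshold. The rows called were 3 of H2-K1, 1 of H2-D1 and 1 of Nlrc5. The Nlrc5 row called was that ranked 3, with means of 5.99 TPM in treated and 1.49 TPM in control libraries. The highest Nlrc5 row, with means of 46.27 and 18.35 TPM, overlapped between the groups and was not called. Its difference was 1.17 (SE 0.37, limma Benjamini-Hochberg adjusted p = 0.106).

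The highest H2-K1 row had 626.2, 966.8 and 437.3 TPM in treated libraries, against 751.2, 631.3, 644.5 and 518.9 TPM in control libraries. The groups overlapped, and the difference was 0.03 on the log2 scale (SE 0.27). The H2-K1 row ranked 3 had 153.6, 285.2 and 117.8 TPM in treated libraries, against 63.2, 34.6, 47.4 and 48.9 TPM in control libraries. Here every treated library was well above every control library, with a difference of 1.84 (SE 0.30, limma Benjamini-Hochberg adjusted p = 0.0172). The H2-K1 rows ranked 7 and 9 were called too, with differences of 1.62 and 1.5 (limma Benjamini-Hochberg adjusted p = 0.0380 and 0.0350).

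As a share of all H2-K1 TPM, the 2 highest rows held 67.8%, 64.2% and 66.7% in treated libraries, against 81.4%, 83.9%, 82.3% and 80.9% in control libraries. The highest row of H2-D1 held 76.4%, 73.7% and 73.3% of that gene in treated libraries, against 83.8%, 84.3%, 84.3% and 82.7% in control libraries. The highest H2-K1 row alone held 43.3%, 41.9% and 40.4% in treated libraries, against 45.1%, 50.2%, 48.0% and 44.5% in control libraries. Each of these shares was lower in every treated than in every control library, narrowly so for the highest H2-K1 row, while the summed TPM of either gene overlapped. The numbers of rows were chosen after the values were seen, and how often such shares separate over all genes was not computed. Shares within a gene depend on each other, so these values are not separate from the rows called higher. The lowest H2-D1 row, called higher, had 27.9, 55.6 and 27.0 TPM in treated libraries, against 13.5, 6.14, 11.5 and 11.3 TPM in control libraries. Its difference was 1.67 (SE 0.31, limma Benjamini-Hochberg adjusted p = 0.0242).

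**Figure D4:**
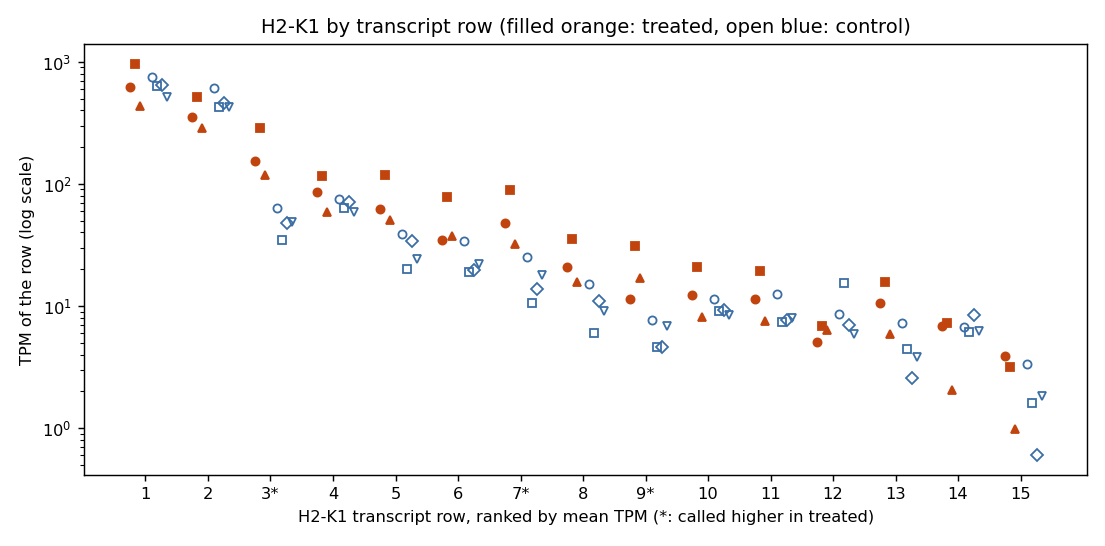
TPM (log scale) of the 15 tested H2-K1 transcript rows, ranked by mean TPM, in treated (filled orange: circle 1, square 2, triangle the third) and control (open blue: circle 1, square 2, diamond 3, inverted triangle 4) libraries. Asterisks mark the 3 rows called higher in treated libraries. Rows 1 and 2 overlap between the groups.

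Class I heavy chain genes resemble each other, so reads can be assigned to the wrong member. Of all 50-base windows of the longest coding transcript in the GENCODE M21 annotation, 8.79% of H2-K1 and 14.3% of H2-D1 also occur in another gene. The share was 44.7% for H2-T22, most of it with H2-T10, and 28.8% for H2-T23. It was 0 for B2m, Nlrc5 and Erap1, which holds for the longest coding transcript, and other transcripts were not checked. For the heavy chains, and for single transcript rows of any gene, the assignment is uncertain, and its part in the row differences was not tested.

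Among 17 listed non-classical and class I-like genes outside the members, 12 were tested. Of these, 6 were called higher in treated libraries and 1 lower, beside 4.30% and 7.59% of all tested symbols. The median difference was 0.71, beside -0.24 over all tested symbols. H2-Q7 and H2-Q6 encode Qa-2 molecules. H2-Q7 had 231.2, 495.3 and 144.4 TPM in treated libraries, against 52.7, 42.2, 50.3 and 56.3 TPM in control libraries. All treated libraries were far above all control libraries, and the difference was 2.32 (SE 0.31, limma Benjamini-Hochberg adjusted p = 0.000564). H2-Q6 had 102.8, 223.9 and 66.8 TPM in treated libraries, against 25.6, 15.7, 23.9 and 27.4 TPM in control libraries, a difference of 2.30 (SE 0.33, limma Benjamini-Hochberg adjusted p = 0.000663). These genes share 50-base windows with each other, 19.3% of those of H2-Q7, and cannot be fully separated.

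H2-Q7 was small beside the classical heavy chain in both groups. Its TPM over that of H2-K1 was 0.160, 0.215 and 0.133 in treated libraries, against 0.0316, 0.0335, 0.0375 and 0.0483 in control libraries. Cd1d1, which presents lipids to natural killer T cells, had 11.4, 14.8 and 6.74 TPM in treated libraries, against 4.52, 3.86, 5.34 and 3.92 TPM in control libraries, a difference of 1.09 (SE 0.25, limma Benjamini-Hochberg adjusted p = 0.0135). H2-Q10 rose by 1.49 on the log2 scale (SE 0.31), at 4.33 to 11.6 TPM in treated and 0.89 to 2.37 TPM in control libraries (limma Benjamini-Hochberg adjusted p = 0.00701). H2-Q4, H2-T10 and, lower, Hfe, an iron-sensing class I-like molecule named after its values were seen, made up the other calls. Without treated replicate 2, 3 were called higher and 0 lower, the calls of H2-Q4, H2-T10 and Cd1d1 being lost, and without control replicate 1, 2 or 3 or treated replicate 1 the call of Hfe was lost. With median-of-ratios scaling or without mitochondrial genes and copies, 7 were called higher and 0 lower. Without treated replicate 1, 4 were called higher, and without the filter on low values 0 were called in either direction. T cell identity genes were higher in the same libraries, as were both tested natural killer cell markers, Klrk1 and Eomes. The natural killer cell markers summed to 35.3 to 98.0 TPM in treated and 6.48 to 9.35 TPM in control libraries, carried mostly by Klrk1 and Eomes. The other 4 listed, Ncr1, Klrb1c, Klra8 and Klra4, were too low to be tested. The part of the T cell and natural killer cell genes in these calls was not tested.

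The promoters of H2-Q4 and H2-Q7 are shown beside those of the classical chains, in the same build, window and notation, because H2-Q4 varied most like Nlrc5 and H2-Q7 had the largest difference.
H2-Q4, chr17:35379417-35379616, plus strand: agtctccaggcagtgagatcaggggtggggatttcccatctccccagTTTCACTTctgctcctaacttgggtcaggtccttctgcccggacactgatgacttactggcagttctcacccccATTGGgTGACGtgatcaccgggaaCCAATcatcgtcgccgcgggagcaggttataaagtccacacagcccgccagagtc
H2-Q7, chr17:35438955-35439154, plus strand: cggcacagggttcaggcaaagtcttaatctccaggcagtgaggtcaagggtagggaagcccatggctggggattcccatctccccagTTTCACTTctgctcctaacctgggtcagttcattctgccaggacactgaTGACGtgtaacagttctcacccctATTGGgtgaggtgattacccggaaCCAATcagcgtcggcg
Both hold TTTCACTT, TGACG and CCAAT in their windows, as H2-K1 and H2-D1 do, but not in the same layout. In H2-Q4 TGACG lies between the CCAAT matches, while in H2-Q7, H2-K1 and H2-D1 it lies upstream of them. The windows of other genes called higher differ: H2-Q6 (difference 2.30) holds TTTCACTT and CCAAT but no TGACG. H2-Q10 (difference 1.49) holds TTTCACTT alone. The log2 differences of H2-Q4 and H2-Q7 were 1.14 and 2.32 and those of H2-K1 and H2-D1 0.19 and 0.18, and the gap between them was not tested. A match describes the letters and says nothing of binding.

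The 5 tested symbols whose profile over the 7 libraries was most like that of Nlrc5 were H2-Q4, Sdcbp2, H2-T10, Gvin1 and Itgb7. Model-number names and receptor and immunoglobulin segments were left out of this order. Likeness was the root mean square difference of log2(TPM + 1) centred on each gene's own mean, and it was 0.12 for H2-Q4 and 0.17 to 0.21 for the others. It takes in the difference between the groups, so genes with a difference of like size lie close. H2-Q4 had 107.3, 195.8 and 68.3 TPM in treated libraries, against 68.5, 40.0, 51.2 and 47.3 TPM in control libraries. The third treated library lay just below control replicate 1. The difference was 1.14 (SE 0.30, limma Benjamini-Hochberg adjusted p = 0.0236). H2-T10 had 11.2, 20.7 and 7.69 TPM in treated libraries, against 6.76, 3.46, 6.09 and 6.19 TPM in control libraries, with a difference of 1.03 (limma Benjamini-Hochberg adjusted p = 0.0392). It shares 40.2% of its 50-base windows with H2-T22, so these values are uncertain. Both calls were lost without treated replicate 1 or 2, and that of H2-T10 also without control replicate 2.

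The other members came later in the same order of likeness to Nlrc5. The nearest was Tap1, at rank 499 with a distance of 0.48, then Tap2 at rank 592, and the farthest was Tapbp at rank 8335. The 5 symbols most like B2m were Abracl, Pcnt, Tmpo, Rbm3 and Cep192, at 0.06 to 0.07. H2-K1 was at rank 25 from B2m, H2-T22 at 53, Tap2 at 119, H2-D1 at 158, Erap1 at 218, H2-T23 at 461 and Tap1 at 845. Tapbp stood at rank 6936 and Nlrc5 at rank 11286 from B2m. All these profiles share the scaling of the same 7 libraries, and likeness was not tested.

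The genes that work with the members in the pathway showed few calls. Of 10 folding and loading chaperones of the endoplasmic reticulum, limma called 0 in either direction, beside 4.30% and 7.59% of all tested symbols. At an unadjusted p under 0.05, 0 were higher and 4 lower, beside 6.87% and 23.6% of all tested symbols. The median difference of the chaperones was -0.40. Of the 10, 6 were lower in every treated library than in every control library, beside the 25.7% of all tested symbols. With median-of-ratios scaling 1 was called higher and 1 lower, beside 8.63% and 6.74% of all symbols. Without mitochondrial genes and copies 1 was called higher and 2 lower, beside 8.09% and 7.98%. Without treated replicate 1, 3 chaperones were called lower, beside 2910 of all 14967 symbols. Of 8 cytosolic peptidases, 0 were called higher and 1 lower, beside 4.30% and 7.59% of all tested symbols. At an unadjusted p under 0.05 the counts were 1 and 2, beside 6.87% and 23.6%. The gene called was Lap3, an aminopeptidase, with 28.1, 27.3 and 21.9 TPM in treated libraries, against 37.9, 43.1, 40.4 and 37.4 TPM in control libraries. Its difference was -0.61 (SE 0.19, limma Benjamini-Hochberg adjusted p = 0.0468), and the call was lost without any one control library or without treated replicate 2. Without the third treated library, and under each of both other scalings, 1 peptidase was called higher.

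Of 7 immunoproteasome and proteasome activator genes, limma called 0 in either direction, beside 4.30% and 7.59% of all tested symbols. At an unadjusted p under 0.05, 1 was higher and 0 lower, beside 6.87% and 23.6%. The median difference of the 7 genes was -0.13. Of these genes 1 was called higher without the third treated library and under each of both other scalings. Of 8 promoter partners of Nlrc5 (the RFX, NF-Y and CREB/ATF genes), limma called 0 in either direction, with 0 also at an unadjusted p under 0.05 and a median of -0.11. Under each of both other scalings 1 of them was called higher. Of all symbols, 8.63% were called higher with median-of-ratios scaling and 8.09% without mitochondrial genes and copies.

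**Figure D5:**
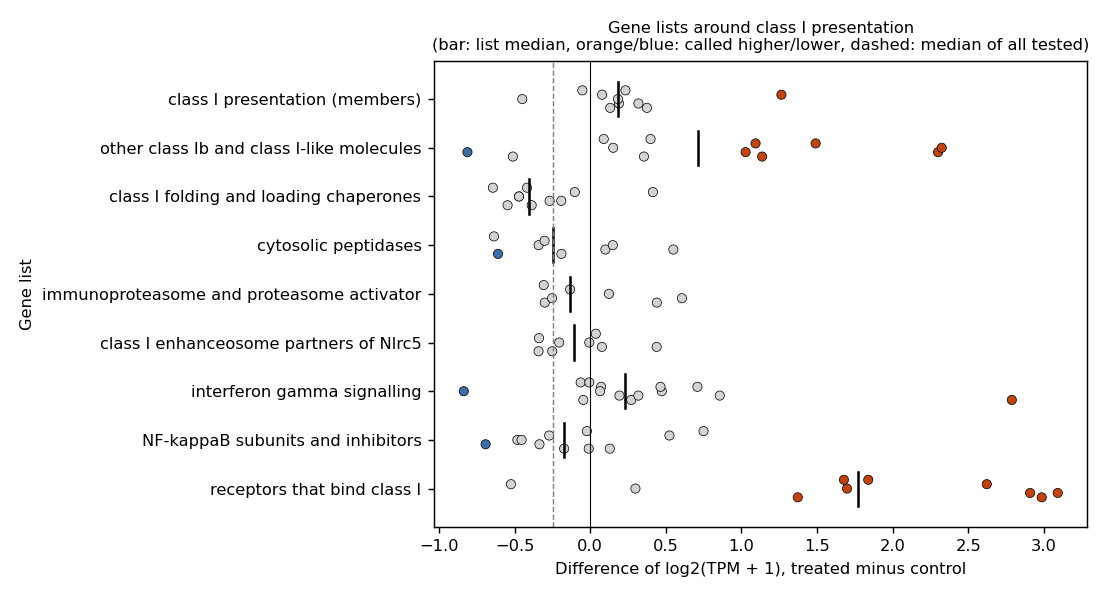
Difference of log2(TPM + 1), treated minus control, for the tested genes of each list (1 point a gene, bar at the list median). Orange and blue mark genes called higher and lower in treated libraries. The medians run from -0.40 for the chaperones to 1.77 for the receptors that bind class I, and the dashed line is the median of all tested symbols, -0.24.

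Interferon gamma is a strong inducer of class I genes. Of 14 genes of its signalling pathway 1 was called higher and 1 lower, beside 4.30% and 7.59% of all tested symbols. The median difference of the 14 genes was 0.23. With median-of-ratios scaling 5 of them were called higher, without mitochondrial genes and copies 4 and with array weights 9, with 1 lower in each. Of all symbols, these settings in the same order called 8.63%, 8.09% and 15.0% higher and 6.74%, 7.98% and 28.2% lower. Ifng, the cytokine itself, had 19.4, 44.0 and 17.8 TPM in treated libraries, against 4.17, 2.63, 2.76 and 1.77 TPM in control libraries. The difference was 2.79 (SE 0.31, limma Benjamini-Hochberg adjusted p = 0.000277), with every treated library above every control library. Ifngr2, a chain of its receptor, had 19.0, 12.4 and 9.82 TPM in treated libraries, against 21.2, 27.2, 27.1 and 22.9 TPM in control libraries. Its difference was -0.84 (SE 0.23, limma Benjamini-Hochberg adjusted p = 0.0307), and the call was lost without control replicate 2 or 3, treated replicate 2 or the third treated library. Without the third treated library 4 genes of the list were called higher, and without control replicate 3 the number was 2.

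Of 11 NF-kappaB subunits and inhibitors 0 were called higher and 1 lower by limma, beside 4.30% and 7.59% of all tested symbols. At an unadjusted p under 0.05 the counts were 1 and 2, beside 6.87% and 23.6%. The gene called was Nfkb2, a subunit of the non-canonical pathway, with 30.8, 32.6 and 20.4 TPM in treated libraries, against 40.8, 49.6, 46.4 and 42.9 TPM in control libraries. Its difference was -0.69 (SE 0.21, limma Benjamini-Hochberg adjusted p = 0.0425), and the call was lost without any one control library. Without control replicate 3, or without the third treated library, 1 gene of the list was called higher, and 2 were under each of both other scalings and with array weights, with 1 lower in each. The shares of all symbols called under both scalings and with array weights were those given for the interferon gamma list. The median of the NF-kappaB list was -0.17.

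Receptors that bind class I had the most calls of the pathway lists. Of 12 listed 10 were tested, and limma called 8 higher and 0 lower, beside 4.30% and 7.59% of all tested symbols. At an unadjusted p under 0.05, 0 were lower too, beside 23.6% of all tested symbols. The median difference of the list was 1.77. The largest were Klrc1, the NKG2A chain that recognises the H2-T23 product, at 3.09 (SE 0.33), and Cd8a, a chain of the co-receptor that binds class I heavy chains, at 2.99 (SE 0.39). Cd8b1 differed by 2.91 (SE 0.40) and Klrd1, the CD94 partner of Klrc1, by 2.62 (SE 0.37). Klrc1 had 16.4, 54.4 and 21.1 TPM in treated libraries, against 2.64, 1.96, 1.72 and 2.81 TPM in control libraries, while H2-T23 overlapped between the groups. Cd8a and Cd8b1 are also in the T cell identity list, so the receptor count and that list are not independent of each other. With any 1 library left out, 8 were again called higher, and the number was 9 with median-of-ratios scaling and 10 without mitochondrial genes and copies. It was 4 when at least 5 TPM in 3 libraries was required, and 0 without the filter on low values. Of the genes called, Klrc2 and Klra9 were under 1 TPM in every control library, and Cd160 in all but control replicate 1. Those genes passed the filter through the treated libraries.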

How the data were processed

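RNA of 7 libraries had been sequenced, and the authors deposited a table of TPM values for 149132 transcript rows with a gene symbol each. Per the labels' protocols, poly(A) RNA was selected and stranded libraries were amplified by PCR. Per the submitters' processing notes, fastp, HISAT2, StringTie and build mm39 were used, with no roles given. TPM keeps no depth, so no counting interval is given.

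TPM was summed per symbol (56422), leaving out 1001 rows without one (0.307% to 0.618% of TPM), and 0 other value columns were present. Symbols with at least 1 TPM in at least 3 libraries (14967) were tested on log2(TPM + 1), which understates changes of low genes, with limma 3.58.1 in R 4.3.3, an intensity trend and Benjamini-Hochberg adjustment. The procedure was tested on simulated data. The third treated column carries a number that no treated sample has, so it entered the group unnumbered. The members, 8 other pathway lists and 11 marker lists were chosen with earlier results of these data known. All members are named. Of each other list, called genes are named, at most 4 with the smallest p (3 with the highest mean for marker lists), and the 5 symbols most like Nlrc5 and B2m. Alternatives (18) changed the pseudocount, filter, scaling, variance model, weights, transcript choice and block, and left out libraries.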

Additional observations from a re-analysis of the deposited data

Results flagged for a closer look

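In 30 quantities (the members and the list sums) the 4 control libraries were searched for a single value far from the others, by Dixon's criterion at the 95% level, which chance alone passes in about 1 of 20 groups. It was met by 3. H2-T23 had 335.9 TPM in control replicate 1, against 285.6 to 292.2 TPM in the other control libraries. The summed TPM of the Nlrc5 promoter partners was 198.9 in control replicate 3, against 180.8 to 183.1 in the others. The summed TPM of macrophage and monocyte markers was 14980 in control replicate 3, against 6207 to 7040 in the others.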

How the results depend on the processing

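Against 1 member called higher, 0 lower, 2 without overlap, a median of 0.19 and 1779 symbols called, the values under the alternatives were as follows. The number called higher was 0 without the filter on low values, with robust variance estimation, with the highest transcript row alone, with a replicate block and without control replicate 3 and the third treated library. With array weights 7 members were higher and 1 lower, with a median of 0.55, while 15.0% and 28.2% of all symbols were called. With the highest row alone 1 member did not overlap. Symbols called numbered 7 without the filter, 6467 with array weights, 712 with the replicate block and 956 without control replicate 3 and the third treated library. When each library was left out in turn, 0 to 1 members were called higher, 2 to 3 did not overlap, the median was -0.10 to 0.40 and 964 to 3434 symbols were called. The share of higher calls was 36.1%, against 56.1% with median-of-ratios scaling and 50.4% without mitochondrial genes and copies.

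Nlrc5 was called in 12 of 18 alternatives, with differences of 0.82 to 1.82 and limma Benjamini-Hochberg adjusted p from 0.000961 to 0.138. H2-T23 turned positive without mitochondrial genes and copies (0.17), with median-of-ratios scaling (0.20), array weights (0.15), the replicate block (0.0764), and without control replicate 3 and the third treated library (0.11), the third treated library alone (0.14) or control replicate 1 (0.002). Without treated replicate 2, B2m, H2-K1, H2-D1 and H2-T22 turned negative. With each library left out in turn, B2m ran from -0.11 to 0.37, H2-K1 from -0.10 to 0.44, H2-D1 from -0.10 to 0.38, H2-T22 from -0.16 to 0.36, H2-T23 from -0.19 to 0.14, Tap1 from 0.05 to 0.63, Tap2 from 0.05 to 0.57, Erap1 from 0.03 to 0.42 and Tapbp from -0.60 to -0.24. The cause was not tested.

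The main fit did not pair libraries by replicate number. For replicates 1 and 2, deviations of same-numbered libraries from their group means correlated at r = -0.019 and -0.090 across genes. Whether same-numbered libraries shared a batch cannot be told from these values. Unknown depth limits every level.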

Other observations

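Markers of the remaining cell types were also present in every library. B and plasma cell markers, led by Cd79a, summed to 92.0 to 129.5 TPM in treated and 42.3 to 141.1 TPM in control libraries. CD4 and regulatory T cell markers summed to 13.7 to 30.6 TPM in treated and 7.86 to 12.4 TPM in control libraries. Neutrophil markers, led by S100a9, summed to 49.1 to 115.5 TPM in treated and 18.7 to 424.4 TPM in control libraries. Fibroblast markers, led by Dcn, summed to 115.0 to 227.0 TPM in treated and 282.2 to 322.3 TPM in control libraries. Endothelial markers, led by Esam, summed to 39.8 to 76.4 TPM in treated and 82.6 to 96.1 TPM in control libraries. Erythroid markers, led by Hba-a2, summed to 24.5 to 84.7 TPM in treated and 95.3 to 504.4 TPM in control libraries. Their part in the class I values was not tested.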
